A study of Talpa occidentalis and Mus musculus with 35 samples.

Results

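The deposited annotation of the mole genome, assembly talOcc3, held 23336 gene lines, and 1846 of them (7.91%) carried no gene symbol. These models were found by the start of their identifier: 1637 began with "exonerate.", 106 with "sp.", 100 with "ex." and 3 with "gi|", and the remaining 21490 lines were named after a gene. The study behind the annotation sequenced polyadenylated RNA in 35 libraries of gonads, 19 from the Iberian mole Talpa occidentalis and 16 from mice. The mole libraries came from ovotestes at embryonic day 15, their ovarian and testicular parts at postnatal day 7 and adulthood, and testes at all these ages. The mouse libraries came from wild-type ovaries and testes of embryos (day 13.5), pups (day 7) and animals of 10 weeks. Others came from ovaries of B6 wild-type and Fgf9 mutant embryos, also of day 13.5. The annotation carries no value per library, so no group of libraries is compared here and the depth of the libraries is unknown. It is 1 set of models without replicates, and the intervals below cover counting of models only.

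Gene models of a new genome are commonly made by aligning known proteins or transcripts to it and by combining such evidence, and symbols are commonly carried over from the matched gene of another species. Protein alignment also finds sequences that are not genes in their own right: copies of retroviral genes, copies of processed transcripts, and mitochondrial sequence, whether it comes from the mitochondrial genome or from copies of it in the nucleus. It also finds true genes for which no counterpart has a name to give, such as members of fast-changing receptor families or the variable segments of antigen receptors, which are short exons that are joined to a constant region only in lymphocytes.

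Most lines without a symbol were exonerate alignments, and each of these kept the identifier of the protein that was aligned, its target. The mole sequence under the models was not used here. Targets with a mouse identifier could be looked up in GENCODE M21 (build GRCm38), and 4 of them are shown because they stand for the kinds of model described below. The first pair are the opening 240 coding bases of mt-Atp6 (chrM:7927-8166, plus strand) and mt-Nd3 (chrM:9459-9698, plus strand), and capitals mark in-frame TGA codons, which code for tryptophan in vertebrate mitochondria and stop translation in the nuclear code. The next is the opening 300 coding bases of Gulo (chr14:66004108-66009047, minus strand) and the last is the opening 180 of Trbv29 (chr6:41271403-41271717, plus strand), where capitals mark the 3 bases on each side of an exon junction.
mt-Atp6: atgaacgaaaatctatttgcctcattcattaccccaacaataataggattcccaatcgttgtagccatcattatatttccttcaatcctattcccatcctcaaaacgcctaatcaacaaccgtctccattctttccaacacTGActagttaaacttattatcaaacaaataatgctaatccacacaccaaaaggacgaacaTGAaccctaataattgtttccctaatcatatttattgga
mt-Nd3: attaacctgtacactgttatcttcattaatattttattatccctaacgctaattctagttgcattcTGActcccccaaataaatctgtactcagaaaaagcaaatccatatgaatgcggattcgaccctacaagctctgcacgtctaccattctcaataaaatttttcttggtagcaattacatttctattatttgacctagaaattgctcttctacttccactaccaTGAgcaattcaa
Gulo: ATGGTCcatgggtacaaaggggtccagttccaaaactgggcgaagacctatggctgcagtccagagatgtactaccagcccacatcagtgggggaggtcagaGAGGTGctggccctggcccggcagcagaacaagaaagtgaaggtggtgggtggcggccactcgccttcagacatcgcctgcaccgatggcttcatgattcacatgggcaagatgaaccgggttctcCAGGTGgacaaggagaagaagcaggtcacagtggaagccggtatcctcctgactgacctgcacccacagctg
Trbv29: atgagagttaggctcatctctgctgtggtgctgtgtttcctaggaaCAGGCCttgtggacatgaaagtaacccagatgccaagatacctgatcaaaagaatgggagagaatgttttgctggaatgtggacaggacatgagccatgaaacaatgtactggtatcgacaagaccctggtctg

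The prefix followed the method in column 2 of the file. All 1637 "exonerate." models were labelled exonerate, all 106 "sp." and 100 "ex." models were labelled EVM (the label of a tool that merges evidence into consensus models), and the 3 "gi|" models split into 1 EVM and 2 exonerate models. A symbol was missing from 27.6% of all exonerate models and from 1.38% of all EVM models, and every model labelled ALN was named. The score that the authors deposited on transcript lines was missing from 1843 of the models without a symbol, so scores were not compared.

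Models without a symbol were short and mostly of 1 exon. A single exon made up 1466 of them, or 79.4% (95% exact binomial interval 77.5 to 81.2), against 20.03% of the named models and 24.7% of all gene lines. The median coding length was 543 bases (order-statistic interval 525 to 566), against 1071 bases (1056 to 1086) in named models. Much of this gap lay between methods. Among exonerate models the median was 534 bases without a symbol and 589 bases with one, and the single-exon share was 88.8% without a symbol and 75.8% with one. Among EVM models the difference in length was larger, with a median of 588 bases (534 to 654) in the 207 models without a symbol and 1375.5 bases in the 14774 named ones. The "sp." models had a median of 624 bases and 4 exons, and the "ex." models had a median of 547.5 bases and 3 exons.

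A coding length that was no multiple of 3 was found in 498 models without a symbol, or 27.0% (24.96 to 29.06), against 11.0% of named models and 12.2% of all gene lines. Within exonerate models the shares were 28.7% without a symbol and 29.9% with one. Within EVM models the share was 13.0% (8.77 to 18.4) without a symbol and 4.995% with one. The first coding part began in a phase other than 0 in 21 of the EVM models without a symbol (10.1%), against 3.93% of named EVM models and 4.01% of all EVM models. A gap of under 30 bases between coding parts occurred in 0 models without a symbol and 0 named ones (0% of all gene lines), and the shortest gap anywhere was 30 bases.

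**Figure D1:**
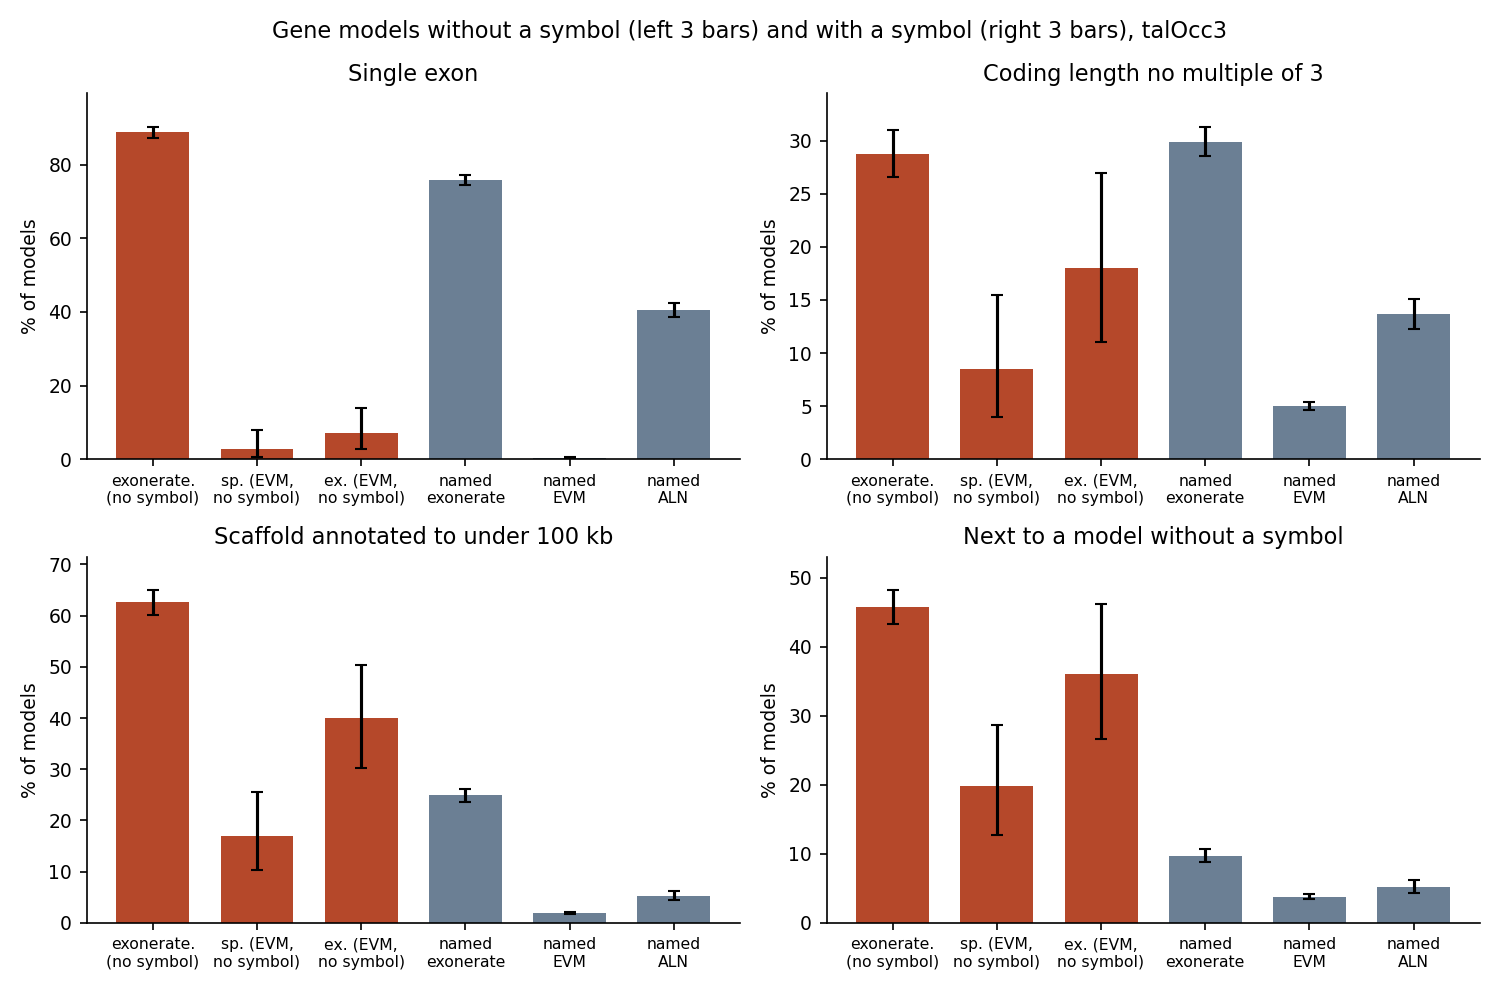
Shares in % of models with a single exon, with a coding length that is no multiple of 3, on a scaffold annotated to under 100 kb, and next to a model without a symbol, for the prefixes "exonerate.", "sp." and "ex." and then for named models by method; bars are shares and whiskers are 95% exact binomial intervals. Single-exon models made up 88.8% of "exonerate." models and 2.83% of "sp." models, against 75.8% of named exonerate and 0.433% of named EVM models.

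The longest "exonerate." model had 8 exons and 5429 coding bases at talOcc3 scaffold 8, 26642516 to 26680945 on the minus strand, and was aligned to a mouse protein of the gene BC067074. The model with most exons among them had 12 exons and 3665 coding bases and lay between FRMD3 and RASEF on scaffold 15, from 8352608 to 8471338. The widest spanned 241 kb on scaffold 13 with only 3 exons. Among EVM models, the longest "sp." model held 6 exons and 2298 coding bases on scaffold 60, from 570936 to 576151, between CCR6, a chemokine receptor, and RNASET2, a ribonuclease. The "sp." model with most exons had 15 and lay on scaffold 2 between BPIFB1 and CDK5RAP1, from 19235424 to 19248265. The "ex." model with most exons had 19 exons and 1710 coding bases on scaffold 1, from 88602165 to 88669092, between LRAT, which esterifies retinol, and FGG, a fibrinogen chain. The longest "ex." model had 4 exons and 1974 coding bases between FAM83H and PUF60 on scaffold 22, from 42306197 to 42312491. The 3 "gi|" models had 1002 coding bases in 7 exons, 681 in 1 exon and 654 in 1 exon, all in frame.

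Small scaffolds held most of the models without a symbol. A scaffold whose last annotated base lay under 100000 carried 1084 of them, or 58.7% (56.44 to 60.98), against 6.83% of named models and 10.9% of all gene lines. The share was 62.6% for "exonerate.", 40.0% for "ex." and 17.0% for "sp." models. Scaffolds annotated to 3 kb or less held 290 and 510 models without a symbol in their 2 size classes (to 1 kb, and 1 to 3 kb), against 372 and 540 named ones. Of 2074 scaffolds with a gene model, 687 (33.1%) held only models without a symbol, and their median last annotated base was 1044. A start within 10 bases of the scaffold start was seen in 274 models without a symbol (14.8%), against 1.14% of named models and 2.23% of all gene lines. On scaffolds annotated to under 100 kb alone, the shares were 25.3% without a symbol and 16.8% with one.

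**Figure D2:**
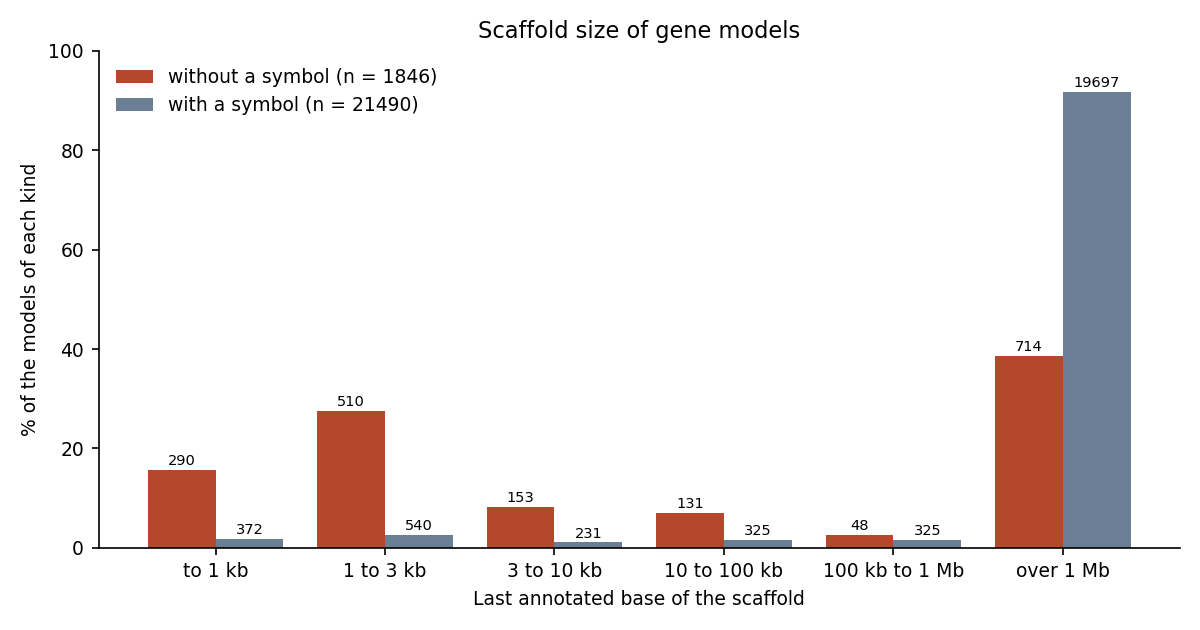
Share in % of models without a symbol and of named models in 6 classes of scaffold size, taken as the last annotated base of the scaffold; numbers above the bars are models. On scaffolds annotated beyond 1 Mb lie 714 models without a symbol, 38.7% of them, against 19697 named models, 91.7%.

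Models without a symbol seldom overlapped a named locus, and never on its strand. An overlap of at least 1 base was found for 70 of them, or 3.79% (2.97 to 4.77), against 6.29% of named models that overlapped another named locus and 6.09% of all gene lines. On scaffolds annotated to 1000000 or beyond the order was the other way, with 8.54% of models without a symbol and 6.67% of named ones. All 70 were on the opposite strand, as were all overlaps between named loci. The overlap included a coding base of both models in 31 cases, and 51 models lay wholly inside a named locus. In all, 66 named loci were overlapped, and the most that any of them held was 2, in DTWD2, FAM13A, a copy of HIKESHI, a copy of LOC107986724 and a copy of TRIM38.

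For 901 models without a symbol (48.8%) the scaffold held no named locus outside an overlap, against 5.40% of named models and 8.84% of all gene lines. Within a class of scaffold size the shares were near each other. They were 82.7% without a symbol and 78.7% with one on scaffolds annotated to under 100 kb, and 0% for both at 1000000 or beyond. Among models without a symbol, the median distance of the other 945 to the nearest named locus was 11.3 kb (9.62 to 13.1). In named models it was 8.74 kb (8.53 to 8.96). By prefix the medians were 12.1 kb for "exonerate.", 10.5 kb for "sp." and 7.55 kb for "ex." models. The farthest on scaffolds annotated to 1000000 or beyond was 1177 kb away, on scaffold 6 between MTIF2 and PCDH9, from 63912509 to 63913199. Another lay beside it, at 1176 kb, and the next lay on the same scaffold at 1159 kb, between OLFM4 and PCDH17. The last pair lay side by side on scaffold 4 between CADM2 and HMGB1, each 824 kb from the nearest named locus. All 5 had 1 exon, and 3 of them were aligned to targets whose named models are most often called LOC107986724.

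The alignments drew on few proteins. The 1639 exonerate models without a symbol came from 366 targets, of which 246 were used by 1 such model, while the 45 targets used 10 times or more accounted for 1128 models (68.8%). A target used by more than 1 model without a symbol stood behind 1393 of these models (85.0%). A target used by more than 1 named model stood behind 40.5% of named exonerate models. Counted over lines of both kinds, 53.6% of all exonerate lines had a target used on more than 1 line. The same target stood behind at least 1 named model for 1150 models without a symbol (70.2%). The targets were grouped by the symbol of their named models or, for 2 targets with 5 models and no named one, by the mouse gene, a grouping made after the values were seen. By it, 573 models had a mitochondrial target, 469 a target named as a LOC gene, 43 an endogenous retrovirus target, 70 another symbol and 484 had a target with neither.

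The 10 most used targets made 552 models, 33.7% of the exonerate models without a symbol. HG_cds34538 was aligned 110 times without a symbol and 85 times in named models, most often called LOC107986724, with median coding lengths of 820 and 1297 bases. CC_XP_012589366.1 was aligned 103 times without a symbol and 14 times as LOC105374013, with medians of 366 and 1008 bases. HG_cds23087 was aligned 65 times without a symbol and 19 times in named models, with medians of 387 and 1404 bases. For these 3 targets the models without a symbol were the shorter ones. Over the 24 targets with at least 10 models of both kinds, those without a symbol had the shorter median for 13 and the longer one for 10. The files do not pair these identifiers with a protein name.

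The other 7 of the most used targets were of mixed kinds. LA_ENSLAFP00000029498.1 (55 models) and HG_cds24545 (40 models) had no named model. EE_ENSEEUP00000014596.1 was aligned 48 times without a symbol and 46 times as COX1, a subunit of cytochrome c oxidase, and HG_cds42696 was aligned 29 times without a symbol and 34 times as ND6, a subunit of NADH dehydrogenase. CC_XP_012589367.1 and CC_XP_012586274.1 were aligned 45 and 28 times without a symbol and 7 and 14 times as LOC genes. HG_cds12288 was aligned 29 times without a symbol and 13 times in named models, which were called ERVFRD-1 or ERVW-1, genes that in humans encode the retroviral envelope proteins syncytin-2 and syncytin-1.

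Mitochondrial proteins were the largest of these 5 classes. They were the targets of 573 exonerate models without a symbol, or 35.0% of them, and of 433 named models, and made up 16.9% of all exonerate lines. Among those without a symbol, 90 were aligned to COX1, 82 to ND1, 81 to COX3, 78 to COX2, 72 to CYTB, 58 to ATP6, 46 to ND6, 34 to ND4L, 29 to ND2 and 3 to ND3. ATP8, ND4 and ND5 were the targets of 0 models of either kind by this grouping. A target with neither a named model nor a mouse gene could not enter this class. The counts without a symbol, that of ND3 among them, are therefore lower bounds. COX1, COX2 and COX3 encode subunits of cytochrome c oxidase, CYTB encodes cytochrome b, ATP6 a subunit of ATP synthase, and the ND genes subunits of NADH dehydrogenase. The counts were near equal between models without a symbol and named ones for ND6 (46 and 46) and CYTB (72 and 71), and further apart for COX3 (81 and 32) and COX2 (78 and 40).

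**Figure D3:**
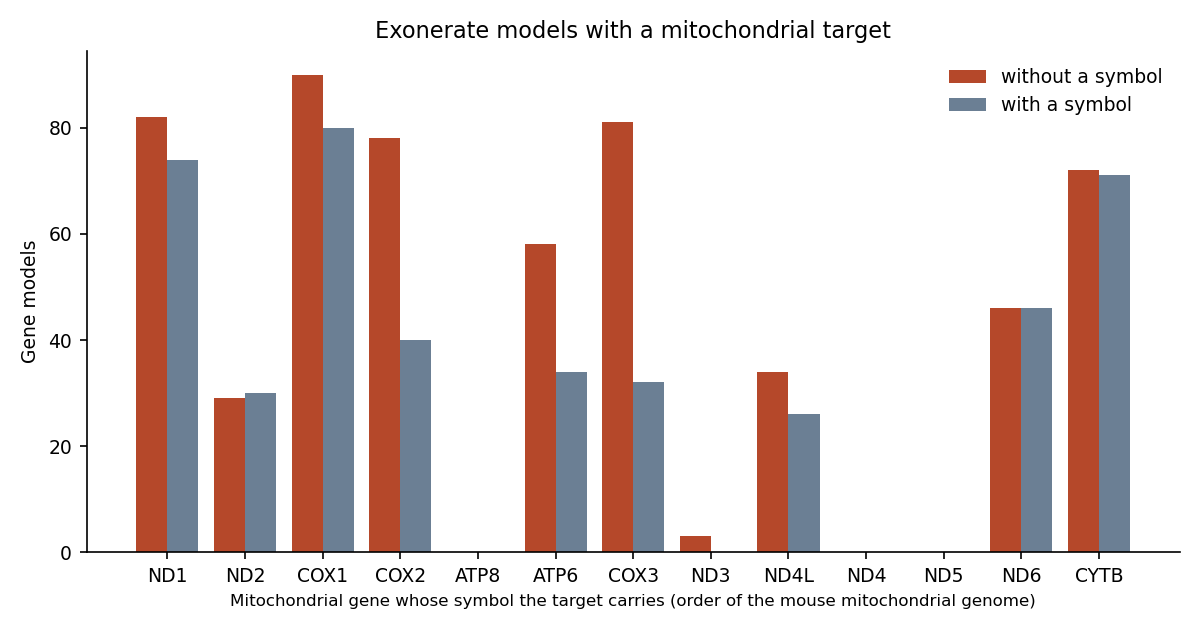
Number of exonerate models without a symbol and with a symbol, by the mitochondrial gene of the target; genes stand in the order of the mouse mitochondrial genome. COX3 has 81 models without a symbol against 32 named ones, and ATP8, ND4 and ND5 have none of either kind. Targets with neither a named model nor a mouse gene are not counted.

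Models with a mitochondrial target lay mostly on small scaffolds and ranged from short pieces to the full gene. A single exon made up 99.7% of them, against 99.5% of the named models with a mitochondrial target, and 97.7% lay on scaffolds annotated to under 100 kb, against 98.6% of the named ones. Median coding length was 572 bases without a symbol and 591 bases with one, and 38.2% and 35.3% were no multiple of 3. Models without a symbol that were aligned to COX1 had a median of 776.5 bases, 50.4% of the 1542 coding bases of mouse mt-Co1, while those aligned to ND4L and ND6 had medians of 294 and 516 bases, the full lengths of mouse mt-Nd4l and mt-Nd6. At least 80% of the mouse coding length was reached by 240 of the 573 models without a symbol (41.9%, interval 37.8 to 46.0). All mouse mitochondrial coding sequences except mt-Nd4l hold in-frame TGA codons of the kind shown above, from 3 in mt-Atp6 to 17 in mt-Co1. The 473 small scaffolds with such a model had a median last annotated base of 1009. Whether they are parts of the mitochondrial genome or nuclear copies was not tested.

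Their order was that of the mitochondrial genome. Where 2 mitochondrial models followed each other on a scaffold and at least 1 had no symbol, 146 of 149 pairs (98.0%, interval 94.2 to 99.6) stood in the order of the mouse mitochondrial genes. Named models followed it in 34 of 34 pairs. The distances in the 4 most frequent kinds of pair were close to those in mouse: 73 bases at the median of 43 ND6 to CYTB pairs, where the mouse has 74; 2 bases in 42 ATP6 to COX3 pairs, as in mouse; 149 bases in 34 COX1 to COX2 pairs, where the mouse has 143; and 214 bases in 12 ND1 to ND2 pairs, where the mouse has 209. Most of the rarer kinds were also close: 239 bases at the median of 6 COX2 to ATP6 pairs, where the mouse has 233. The medians were 69 for ND3 to ND4L (mouse 73), 70 for COX3 to ND3 (68), 480 for COX3 to ND4L (486) and 389 for ND2 to COX1 (379). Further off were 1 COX2 to COX3 pair with 11 bases (mouse 913) and 1 COX1 to ATP6 pair with 550 (1057). So were 2 ND1 to COX1 pairs with 1866 at the median (1623). The pairs that were further off lay on scaffolds 13 and 29. The 3 pairs out of order lay on scaffolds annotated to 1000000 or beyond. They were a pair of COX1 models on scaffold 24 and the pairs ND1 with CYTB on scaffold 13 and ND1 with ND6 on scaffold 29, where the order ran past the ends of the gene list.

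Of the models without a symbol in the mitochondrial class, only 13 lay on scaffolds annotated to 1000000 or beyond, on scaffolds 3, 13, 24 and 29. On scaffold 13, between 51580 and 62361, 5 of them stood on the minus strand in the order COX3, COX2, COX1, ND1 and CYTB, and the COX1 model was 1547 bases long. On scaffold 29, between 23631003 and 23641623, another 5 covered COX3, ATP6, COX1, ND1 and ND6. Both groups lay between nuclear genes, OTOL1 and SPTSSB on scaffold 13 and CCDC88C and CINP on scaffold 29.

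The target LA_ENSLAFP00000029498.1, which had no named model, followed the same layout. Of its 55 models, 54 lay on small scaffolds, with a median coding length of 348 bases. The next model upstream was a COX3 model in 40 of the 55 and no model was present in the other 15. Downstream it was an ND4L model in 26, no model in 28 and CCDC88C in 1. In the mouse the gene between mt-Co3 and mt-Nd4l is mt-Nd3, whose opening is shown above and which has 345 coding bases. The files give this target no name.

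The longest stretches of neighbouring models without a symbol lay elsewhere. Of all models without a symbol, 806 (43.7%, interval 41.4 to 46.0) had another as a direct neighbour, against 5.15% of named models and 8.2% of all gene lines. They formed 313 runs of 2 or more. The longest run had 30 models over 283 kb of scaffold 5, from 67362209 to 67645685, between PRSS1, a trypsin gene, and EPHB6, a receptor of the ephrin family. The second had 23 models over 602 kb of scaffold 6, from 2039599 to 2641689, between RPL17 and DAD1. The next pair, of 10 and 9 models, lay on scaffold 16 from 43584214 to 43758339 and from 43463281 to 43570053, between AMPH and TARP and parted only by a copy of HIKESHI. The fifth had 9 models in 9.67 kb of scaffold 32, from 5370376 to 5380045, between CCT7 and POU3F4, and 7 of these were alignments of CC_XP_012589366.1.

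The first 4 runs fell where mammals carry T cell receptor genes. In mammals the beta chain locus lies between trypsin genes and EPHB6, the alpha and delta chain locus lies next to DAD1, and TARP is a transcript of the gamma chain locus. A later annotation of the mole, of assembly MPIMG_talOcc4v2.1, was used for names and order only; it places 23 V segments between MGAM and EPHB6, 52 between SALL2 and DAD1, and 1 V segment with 6 constant regions between AMPH and STEAP4. On talOcc3 the same intervals held 32, 31 and 21 models without a symbol. These loci were looked up after the runs were seen. Another interval, EIF2AK3 to PAX8, has 20 V segments in the later annotation and held 3 models without a symbol. It also held 15 named models, most of them called LOC107986994. CLEC2L to HIPK2 has 8 V segments and held 0 models of any kind. The interval with most V segments, RHOU to ZNF248 with 95 and 8 constant regions, could not be compared, because its ends lay on scaffolds 33 and 2 of talOcc3.

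Most models at the T cell receptor loci were short, in frame and on the plus strand. Between AMPH and STEAP4 all 21 lay on the plus strand and all 21 had a coding length that was a multiple of 3, with a median of 384 bases. Between MGAM and EPHB6, 30 of 32 lay on the plus strand and 28 of 32 were in frame, with a median of 340 bases and 24 of them with a single exon. Out of frame were 12.2% of all gene lines, so 28 of 32 in frame was near the background. The interval from SALL2 to DAD1 was wider, at 2631 kb, and also held 62 named models, 21 of them olfactory receptors. Beyond OR4E1, on the side of DAD1, 24 of 26 models without a symbol lay on the plus strand and 25 of 26 were in frame, with a median of 354 bases. The other 5 lay before OR4E1, among olfactory receptor and ribonuclease genes, with 4 on the minus strand and a median of 927 bases; this split was made after the positions were seen. Mouse Trbv29, whose opening is shown above, was the target of a model of 327 bases on scaffold 5 from 67408389 to 67408715, and mouse Trbv17 that of a pair of models, 1 of them in the same run and the other on a small scaffold. Mouse Trav5-1, an alpha chain segment, was the target of a model on scaffold 3516 with 2 exons and 339 bases, and its first exon was 52 bases long, as in mouse.

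**Figure D4:**
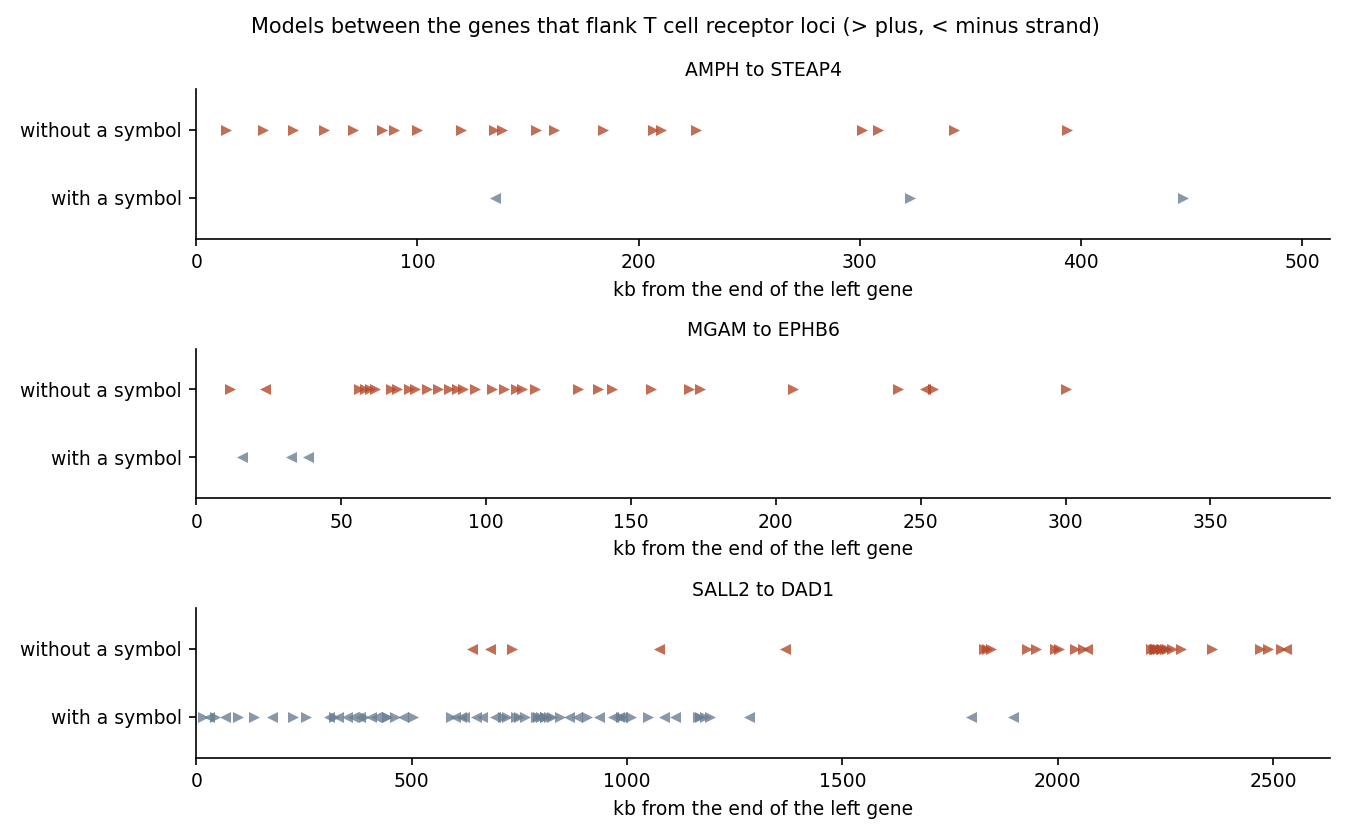
Position in kb from the end of the left gene of models without a symbol (upper row of each panel) and named models (lower row) in the intervals AMPH to STEAP4, MGAM to EPHB6 and SALL2 to DAD1; arrowheads point right for the plus and left for the minus strand. All 21 models without a symbol in the first interval and 30 of 32 in the second point right.

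The 4 occupied V segment intervals and the empty one together held 87 models without a symbol, and 82 without the 5 before OR4E1. These 82 were 11.5% of the models without a symbol on scaffolds annotated to 1000000 or beyond. Their 35 exonerate targets made 69 models without a symbol in the whole assembly. Of these, 63 lay inside the intervals and 6 elsewhere, all 6 on scaffolds annotated to under 100 kb. The targets were taken from the models inside, so each had at least 1 model there by choice.

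Mouse identifiers let 165 of 167 models be read by gene name, 1 of them only after its version was dropped. Apart from 104 mitochondrial models, 16 were aligned to vomeronasal receptors, 7 to olfactory receptors, 4 to T cell receptor segments, 3 to Toll-like receptors, 19 to genes with a clone or predicted name, and 12 to other genes. Vomeronasal and olfactory receptors detect pheromones and odours. The vomeronasal models had a median of 909 coding bases, 92.9% of their targets. In frame were 14 of 16, near the background, since 12.2% of all gene lines were out of frame. Of these 16 models, 3 were aligned to Vmn1r223. They lay on scaffold 47 beside ABT1, BTN1A1 and BTN2A2, which are also neighbours of the mouse gene.

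Of 47 models without a symbol that had a non-mitochondrial mouse target and lay on scaffolds annotated to 1000000 or beyond, 20 (42.6%, interval 28.3 to 57.8) shared at least 1 of the 5 nearest gene names on either side with the mouse gene. Among named models with such targets it was 138 of 366 (37.7%), and over both kinds 38.3%, so the share was near the background. Names had to be identical, so olfactory and vomeronasal receptor neighbours, named differently in mouse and mole, could not match. Among models of 1 exon the shares were 36.8% of 38 without a symbol and 29.4% of 286 named ones. Among models with more than 1 exon they were 66.7% of 9 and 67.5% of 80. On both sides of the mole model neighbours were shared by 16 of the models without a symbol. Those described next were chosen after their values were seen.

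A model of Gulo matched the mouse gene in place and in structure. GULO, L-gulonolactone oxidase, makes vitamin C in most mammals and is a pseudogene in humans. The model lay on scaffold 13 from 58328369 to 58340520 on the plus strand, between EPHX2 and CLU. Beyond EPHX2 lay TRIM35, PTK2B and CHRNA2, and beyond CLU lay SCARA3, CCDC25 and ESCO2. All these genes are among the 5 nearest on either side of the mouse gene. Their side and order in mouse were not compared. It had 11 coding parts and 1320 coding bases, 100% of the mouse coding length, in frame. Mouse Gulo has 12 coding parts, and the last 10 parts of the mole model had the same lengths as the last 10 in mouse. The first mole part had 105 bases, where the mouse has a part of 3 bases and then 1 of 102.

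The 3 Toll-like receptor models were aligned to mouse Tlr11, Tlr12 and Tlr13, which in mice sense microbial protein and RNA and have no working counterpart in humans. The Tlr11 model had 2787 bases in frame, 99.8% of the mouse length, on scaffold 6 from 843179 to 845965 in the SALL2 to DAD1 interval. It shared no neighbour name with the mouse gene. It lay among olfactory receptor models, whose names differ between mouse and mole, so such neighbours could not be matched. The Tlr12 model had 2713 bases in 1 exon, 99.8% of the mouse length but no multiple of 3. It lay on scaffold 2 from 83478537 to 83481249, between ZSCAN20 and PHC2. The Tlr13 model had 970 bases, 32.6% of the mouse length and also out of frame. It lay on scaffold 32 from 3193505 to 3194474, between ATP7A and PGK1. Both pairs are also within 5 genes of the mouse gene, and their side in mouse was not compared.

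Apon, which encodes apolipoprotein N in mice, was the target of a model of 762 bases, 101% of the mouse length, on scaffold 34 from 15088763 to 15089524, between APOF and TIMELESS, with 9 shared neighbours. The longest model of all, aligned to BC067074, shared 7 neighbours, among them SNX18 and ESM1, the nearest shared ones on each side; its length was 75.7% of the target and out of frame. For 14 of the 16 models with shared neighbours on both sides, the nearest shared pair stood close together in the later annotation, with at most 20 listed genes between. A protein-coding gene with a LOC name lay between them in 8 of the 14, and in 5 of these, those of Gulo, Tlr12, Apon, BC067074 and C130050O18Rik, it was the sole protein-coding gene there. No protein-coding gene lay between them in 4, among them Tlr13.

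Models without a symbol were more frequent where a gene is missing from the names. Between genes named 1 time in both mole annotations and adjacent in both, there were 11644 intervals, of which 321 (2.76%) held a model without a symbol. The share was 7.03% (5.67 to 8.60) of the 1237 intervals where the later annotation places a gene with a symbol that is absent from the names of talOcc3, and 11.1% (9.38 to 13.1) of the 1178 where it places only absent LOC genes, against 1.12% (0.912 to 1.35) of the 9229 where no gene is absent. For EVM models alone the shares were 2.91%, 3.57% and 0.271%, and 0.885% over all intervals. The intervals also differed in width, with medians of 61.8, 111.4 and 23.2 kb. Among intervals of 10 to 100 kb the shares were 4.78%, 7.06% and 0.751%. The part of width within that range was not tested.

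**Figure D5:**
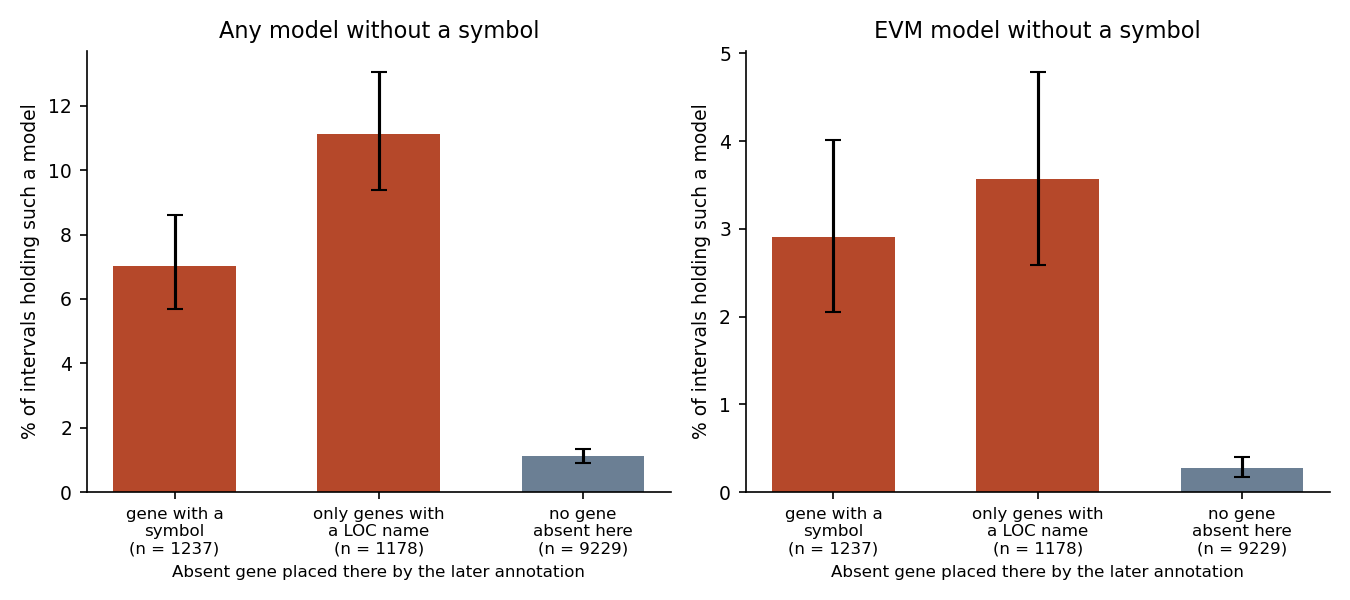
Share in % of intervals between neighbouring named genes that hold a model without a symbol (left) or an EVM model without a symbol (right), by what the later mole annotation places there and is absent from the names of talOcc3; whiskers are 95% exact binomial intervals. The shares on the left are 7.03%, 11.1% and 1.12%.

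In 12 intervals the later annotation placed a single absent gene, with a symbol, and talOcc3 held a single EVM model without a symbol; these were picked out after the values were seen, from 480 intervals with 1 such absent gene. The absent genes were C1orf167, TNFRSF25, FAM3B, BRME1, SMIM28, C2orf16, INPP5E, CLPSL2, C17orf50, SPATA32, AKAP12 and ICAM1, and all 12 models were in frame. Out of frame were 13.0% of all EVM models without a symbol and 4.995% of named EVM models. BRME1, which takes part in meiotic recombination in mice, faced a model of 8 exons and 1920 bases on scaffold 5 from 1149178 to 1173976, between NANOS3 and CC2D1A. SPATA32, named for spermatogenesis, faced a model of 6 exons and 1434 bases on scaffold 28 from 11514550 to 11518350, between FMNL1 and MAP3K14. TNFRSF25, a death receptor gene, faced a model of 3 exons and 537 bases between PLEKHG5 and ESPN. Whether a model and the gene it faces are the same gene was not tested.

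Few gonad genes missing from the names could be looked up. Of 114 genes in lists of testis, ovary, steroid, germ cell and FGF genes, 16 had no named locus on talOcc3, and for 6 of them (DHH, PTGDS, FOXL2, IRX3, NANOS2 and FGF3) the interval in which the later annotation places the gene could be compared. These 6 intervals held 0 models without a symbol, and 6 are too few to tell this from the 7.03% of all intervals with an absent symbol that held one. In a list of 12 markers of other cell types, 2 had no named locus and no comparable interval. DHH is a signal from Sertoli cells, FOXL2 a transcription factor that maintains granulosa cells, and NANOS2 acts in male germ cells. Near FGF9, a growth factor without which mouse testes do not form, the closest model without a symbol lay 2054 kb away with 27 loci between, and it was aligned to HG_cds12288, the target shared with ERVFRD-1. The 3 loci of CYP17A1, a steroid hydroxylase, lay 412, 435 and 451 kb from their closest one, a model of 3 exons and 486 bases. Of the 945 models without a symbol whose distance to a named locus could be measured, 1 had a gene of the lists as the nearest. This model of 423 bases lay 260 kb from FGF10 and was aligned to the mouse gene B430218F22Rik. How often named models have a list gene as their nearest locus was not counted.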

How the data were processed

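The file analysed here is the authors' annotation of the mole assembly talOcc3, with 1-based positions and, on transcript lines, a score deposited by the authors, which was not compared. The number of per-sample columns left unused was 0. STAR 2.6.1d and the build mm9 stand without a role in the submitters' processing notes. The meaning of the score and the modelling steps: not given in the sources used here.

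Gene lines were joined to their coding parts in Python 3.11.15 (pandas 2.3.3, numpy 2.4.6, scipy 1.17.1). Scaffold size is the last annotated base. Distances run to the nearest named locus that does not overlap. Targets were read from transcript identifiers, and a target took the symbol most of its named models carry. Shares have exact binomial and medians order-statistic intervals at 95%. No test was made, since models are not replicates. Mouse genes were from GENCODE M21 (GRCm38); the later mole assembly MPIMG_talOcc4v2.1 gave names and order only; a gene under another symbol in each annotation counts as absent.

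Members, lists and rules were chosen with earlier results of these data known. Named were the extremes of each prefix, the 10 most used targets, the 5 longest runs, the 5 most overlapped loci, the 5 farthest models, and those near FGF9, CYP17A1 and list genes. In simulated data with 19697 named loci, all 200 planted overlaps, 200 distances and 200 occupied intervals were recovered, with 0 false calls.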

Additional observations from a re-analysis of the deposited data

How the results depend on the processing

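No paired analysis was possible because the annotation holds no value per library. Of 35 alternatives that changed the set of models or a rule, 14 stayed within the interval of the reported value and 21 left it. Some of the 14 could only stay. The shortest gap anywhere was 30 bases, so the share with a gap of under 30 bases was 0 in any subset. The same held with a limit of 10 bases. On scaffolds annotated to 1000000 or beyond, the single-exon share was 65.3%, the median coding length 589 bases, the out-of-frame share 19.5%, the share overlapping a named locus 8.54%, the median distance 16.7 kb, the share on a repeated identifier body 54.3% (75.5% over all models), and the share with a mitochondrial target, an alternative added after seeing the data, 2.24% (35.0% as reported). On those scaffolds 6.67% of named models overlapped another named locus, fewer than of models without a symbol, the reverse of the order over all scaffolds. With at least 300 coding bases the out-of-frame share was 29.4%. The median coding length of models with more than 1 exon was 672 bases. With limits of 10000 and 1000000 for small scaffolds the shares were 51.6% and 61.3%. Overlap on the same strand was 0% and overlap of coding bases 1.68%. The median distance was 9.2 kb with overlaps at 0, 23.6 kb to loci on the same strand and 26.0 kb to loci with more than 1 exon. Gaps of under 60 bases occurred in 1.95%. With the identifier as written, 0% stood on more than 1 line. The share of intervals with an absent symbol that held a model was 4.78% at 10 to 100 kb, 5.66% for models of at least 300 bases outside named loci, and 4.82% without intervals holding a locus unknown to the later annotation (added after seeing the data). Keeping 1 of each set of overlapping models on the same strand changed no model, so the 9 values under it are not counted above. No model has a replicate.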
